A study of Homo sapiens with 12 samples.

Results

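SERPINB5, SERPINB7 and SERPINI1 are 3 of the 15 serpin genes among the 8579 genes measured, and their transcripts are described here across 12 libraries of A375 melanoma cells. They were chosen on measured values. In earlier results of these data, SERPINB7 and SERPINB5 were among the genes with the largest decreases after SEL201, and SERPINI1 was the measured member of a list of BET inhibitor response markers. Their levels and log2 changes in every contrast are therefore given as a description, without a test. Tests are given for the other 12 measured serpins and for other genes.

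A375 is an established human melanoma cell line carrying BRAF-V600E, and every library comes from this 1 line. Cells were grown for 72 hours with 1 of 4 treatments. The UNTREATED group has DMSO, the drug solvent, as its treatment label. The SEL201 group received 2.5 µM of this inhibitor of the kinases MNK1 and MNK2, the OTX015 group received 50 nM of this inhibitor of BET bromodomain proteins, and the COMBO group received both agents. Each group has 3 libraries, numbered 1 to 3. The labels do not say that these came from separate cultures, so the spread between libraries may be technical.

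Serpins share a fold in which an exposed reactive loop serves as bait for a protease. In inhibitory members the cleaved loop inserts into the serpin body and traps the protease. SERPINB5 (maspin) is an intracellular, mainly epithelial clade B serpin that does not inhibit proteases in this way and has been studied as a suppressor of tumour growth and invasion. SERPINB7 (megsin) is a clade B serpin of the epidermis, where inherited loss causes a palmoplantar keratoderma. SERPINI1 (neuroserpin) is secreted mainly by neurons and inhibits tissue plasminogen activator. Clade B genes lie in clusters on chromosomes 18 and 6, whereas SERPINI1 lies on chromosome 3.

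The sequences before the RefSeq gene starts (build GRCh38.p14) are shown because SERPINB5 and SERPINB7 lie side by side among the measured genes and their transcripts varied together, with SERPINI1 as the member that went the other way. Each window is the 250 bases before a start, on the plus strand and written 5′ to 3′. The SERPINB5 window is chr18:63476708-63476957. RefSeq gives SERPINB7 3 starts. Numbered in chromosomal order, the windows of start 2, chr18:63775168-63775417, and start 3, chr18:63777531-63777780, are printed, and that of start 1, chr18:63752807-63753056, is described only. The SERPINI1 window is chr3:167735471-167735720. Capitals mark matches to TGANTCA (the AP-1 motif), GGGCGG (the GC box) and CAGCTG (an E-box), searched on both strands.
SERPINB5: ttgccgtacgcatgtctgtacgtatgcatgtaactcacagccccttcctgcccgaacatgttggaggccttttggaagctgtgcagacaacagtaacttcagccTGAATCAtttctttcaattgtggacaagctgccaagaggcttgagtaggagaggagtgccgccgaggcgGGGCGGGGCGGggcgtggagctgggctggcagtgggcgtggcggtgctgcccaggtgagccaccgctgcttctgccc
SERPINB7 start 2: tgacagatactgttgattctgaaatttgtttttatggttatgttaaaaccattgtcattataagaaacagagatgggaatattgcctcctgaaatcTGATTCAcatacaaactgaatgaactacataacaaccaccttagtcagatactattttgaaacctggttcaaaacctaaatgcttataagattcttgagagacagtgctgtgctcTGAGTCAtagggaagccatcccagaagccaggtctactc
SERPINB7 start 3: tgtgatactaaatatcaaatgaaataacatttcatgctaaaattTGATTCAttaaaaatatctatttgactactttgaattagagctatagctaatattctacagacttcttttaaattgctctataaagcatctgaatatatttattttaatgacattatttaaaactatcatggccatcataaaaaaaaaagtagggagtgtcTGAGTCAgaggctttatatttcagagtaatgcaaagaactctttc
SERPINI1: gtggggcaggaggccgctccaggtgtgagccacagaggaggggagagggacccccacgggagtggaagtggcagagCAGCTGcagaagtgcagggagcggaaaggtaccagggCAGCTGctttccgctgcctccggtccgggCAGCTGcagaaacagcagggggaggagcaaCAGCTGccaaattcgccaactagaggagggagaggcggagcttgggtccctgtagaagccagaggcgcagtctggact

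The SERPINB5 window held 1 TGANTCA match, whose first base lies 146 bases before the start, and 2 GGGCGG matches that share a base, at 77 and 72 bases. Both printed SERPINB7 windows held 2 TGANTCA matches, at 154 and 39 bases before start 2 and at 206 and 45 bases before start 3. The same words, TGATTCA and then TGAGTCA, occurred in both windows. Only TGAGTCA has G or C at N, as the AP-1 motif does. TGATTCA and the SERPINB5 match, TGAATCA, do not. The SERPINI1 window held none of these but 4 CAGCTG matches, at 174, 137, 108 and 78 bases. Of 35116 RefSeq windows of this length, 6.57% held TGANTCA, 42.6% GGGCGG and 14% CAGCTG. The other 5 motifs searched were the E-box CACGTG (in 6.34% of windows), the M-box type of E-box CATGTG (9.42%), the TATA box TATAAA (10.7%), the ETS core CCGGAA (14.5%) and the CRE core TGACG (21.2%). Of these the 4 printed windows held only TATAAA, with 2 matches before SERPINB7 start 3, which are not capitalised. The window of SERPINB7 start 1 held none of the 8 motifs. GC content was 60% for SERPINB5, 52%, 36.8% and 26% for SERPINB7 starts 1, 2 and 3, and 64.8% for SERPINI1. The counts are per gene and do not say which SERPINB7 start was used, and a motif match is not a measured binding site.

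Across the series, the deposited counts summed to 15146071 to 24111541 per library, which counts the 8579 genes only and does not give the depth of sequencing. The mean count of a gene over the 12 libraries ran from 78.67 to 9158.7. Genes with a mean below or above this range are not among the 8579. SERPINB5 had 312 to 344 counts in UNTREATED, 67 to 84 with SEL201 and fewer with OTX015 and in COMBO. Its mean was therefore above 78.67 only through UNTREATED. Of 10 melanocyte markers, 5 were measured (MITF, PMEL, MLANA, S100B and GPNMB), and their summed level was 648 to 713 CPM (counts scaled to a common library total of the measured genes) in UNTREATED and 481 to 484 CPM in COMBO. This sum followed GPNMB (412 to 459 and 202 to 233 CPM), and MITF (165 to 187 and 149 to 158 CPM) was also lower in COMBO. S100B (46.3 to 59.5 and 91.8 to 115 CPM) and MLANA (3.57 to 5.23 and 6.07 to 7.01 CPM) were higher in COMBO, and PMEL overlapped. Of 8 keratinocyte markers, KRT14 and KRT15 were measured, and their sum was 236 to 275 CPM in UNTREATED, 135 to 164 CPM with SEL201, 112 to 131 CPM with OTX015 and 93.0 to 105 CPM in COMBO. Of 6 neuronal markers, SNAP25, SYT1 and TUBB3 were measured, and their sum was 107 to 125, 159 to 170, 190 to 202 and 243 to 252 CPM in the same order of groups. The keratinocyte sum followed KRT14, whereas KRT15 overlapped between all 3 treated groups (54.7 to 75.7 CPM, against 78.2 to 98.4 CPM in UNTREATED). The neuronal sum followed TUBB3 and SYT1, whereas SNAP25 overlapped between OTX015 (11.8 to 15.1 CPM) and COMBO (10.1 to 14 CPM). The part of these cell type markers in the members' levels was not tested. In bulk RNA, fewer cells with a transcript and less of it per cell cannot be told apart.

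SERPINB5 was highest without either agent and lowest with both. The 3 UNTREATED libraries had 13.4, 14.3 and 16.0 CPM (mean 14.5 ± 1.32, SD, n = 3). With SEL201 the values were 3.26, 4.21 and 4.09 CPM (3.85 ± 0.517). With OTX015 they were 2.53, 1.73 and 2.44 CPM (2.24 ± 0.437), and in COMBO they were 0.775, 1.34 and 1.19 CPM (1.10 ± 0.293). Every treated library was below every UNTREATED library, and the 4 groups did not overlap at any step of this order. The mean level was 26.5% of UNTREATED with SEL201, 15.4% with OTX015 and 7.58% in COMBO. The fitted log2 changes against UNTREATED were -1.92 (SE 0.18), -2.71 (SE 0.19) and -3.73 (SE 0.21), or 3.79-fold, 6.52-fold and 13.3-fold lower. The COMBO libraries rest on few reads. Their counts were 18, 29 and 18, and a count of 18 has a 95% exact Poisson interval of 10.7 to 28.4, which covers counting error only.

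SERPINB7 followed the same order with a wider spread between libraries. UNTREATED libraries had 23.6, 25.1 and 46.2 CPM (31.6 ± 12.6, SD, n = 3). SEL201 libraries had 6.42, 5.51 and 11.3 CPM (7.74 ± 3.10). OTX015 libraries had 4.54, 3.19 and 4.68 CPM (4.14 ± 0.819), and COMBO libraries had 1.90, 2.50 and 3.70 CPM (2.70 ± 0.921), from counts of 44, 54 and 56. All treated libraries lay below all UNTREATED libraries, and OTX015 lay below SEL201 without overlap, but OTX015 and COMBO overlapped. The mean level was 24.5%, 13.1% and 8.54% of UNTREATED with SEL201, OTX015 and COMBO. The log2 changes against UNTREATED were -2.04 (SE 0.30), -2.94 (SE 0.32) and -3.59 (SE 0.34), or 4.12-fold, 7.65-fold and 12-fold lower.

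SERPINI1 went the other way. UNTREATED libraries had 5.62, 4.98 and 5.21 CPM (5.27 ± 0.324, SD, n = 3). SEL201 libraries had 10.8, 6.56 and 9.33 CPM (8.90 ± 2.16). OTX015 libraries had 11.9, 12.6 and 12.1 CPM (12.2 ± 0.366), and COMBO libraries had 19.6, 15.6 and 19.8 CPM (18.3 ± 2.35). No group overlapped its neighbour in this order, and the SEL201 library numbered 2 was the treated library closest to UNTREATED. The log2 changes against UNTREATED were 0.76 (SE 0.17), 1.21 (SE 0.17) and 1.80 (SE 0.17), or 1.69-fold, 2.31-fold and 3.47-fold higher. SERPINI1 is used as a response marker of BET inhibitors, and its level was also higher with SEL201 alone, at 169% of UNTREATED, than in UNTREATED. The other listed BET response markers were not analysed here.

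**Figure D1:**
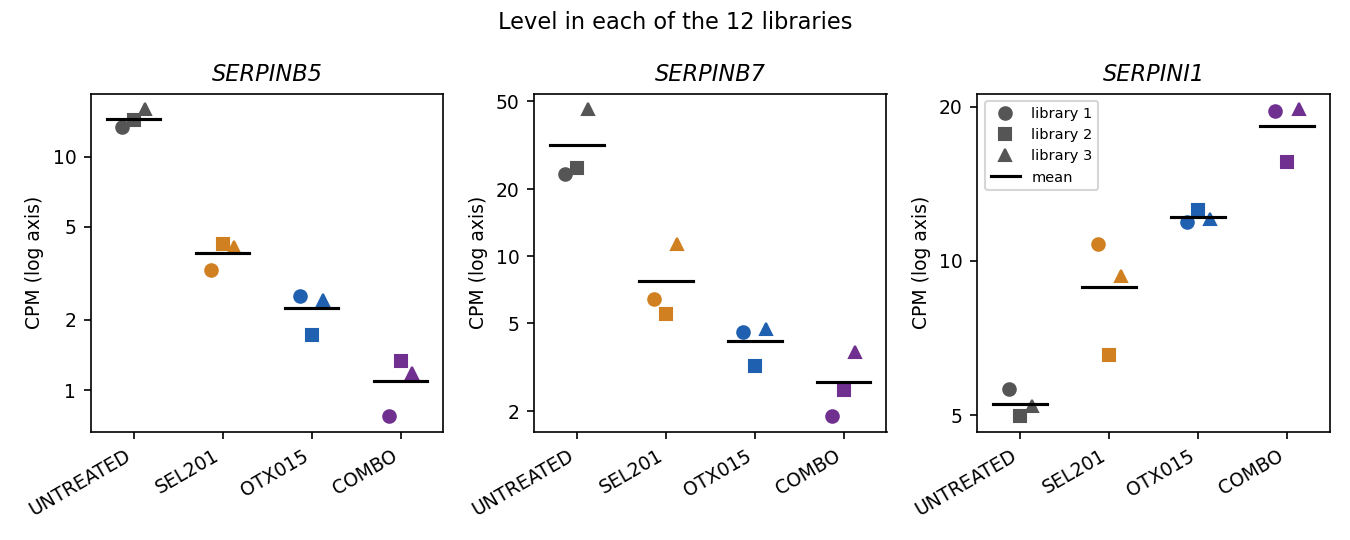
CPM of SERPINB5, SERPINB7 and SERPINI1 in each of the 12 libraries, on a log axis, with the library number as the marker shape and the group mean as a line. SERPINB5 goes from 14.5 CPM in UNTREATED to 1.10 in COMBO and SERPINB7 from 31.6 to 2.70, whereas SERPINI1 goes from 5.27 to 18.3.

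Groups that do not overlap were common in this table. Against UNTREATED, 18.8% of all genes were lower and 18% higher without overlap with SEL201, 28.9% and 28% with OTX015, and 32.1% and 30.6% in COMBO. For OTX015 against SEL201 these shares were 20.3% lower and 18.9% higher, for COMBO against SEL201 24.9% and 23.4%, and for COMBO against OTX015 12.8% and 12.2%. What set the members apart was the size of the difference. SERPINB5 and SERPINB7 had been chosen on its size with SEL201, and SERPINI1 as a listed BET response marker, with measured values known. Among the 8579 log2 changes with SEL201, SERPINB7 was the 4th lowest and SERPINB5 the 5th lowest. With OTX015 they were the 13th and 18th lowest and in COMBO the 14th and 9th lowest. SERPINI1 was the 38th, 39th and 23rd highest in the same contrasts.

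Scaled by merged exon length (GENCODE release 29), which allows levels to be compared between genes, SERPINB7 was the most abundant of the 3 in UNTREATED, at 12 ± 4.80 CPM per kb, against 3.69 ± 0.335 for SERPINB5 and 2.18 for SERPINI1. In COMBO the order was reversed for SERPINI1. It stood at 7.58 CPM per kb, with SERPINB7 at 1.02 and SERPINB5 at 0.280. SERPINB8, a clade B inhibitor of the protease furin, stood at 72.0 CPM per kb in UNTREATED and SERPINB1, an inhibitor of neutrophil elastase, at 67.3. SERPINB7 lay between SERPINA1 (13.6) and SERPINF2 (9.47), and differed from neither by more than its own SD. SERPINB5 lay between SERPINA6 (5) and SERPINA3 (2.92), and SERPINI1 was the lowest of the 15.

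COMBO was also compared with each single agent. Against SEL201 alone, the COMBO log2 difference was -1.81 (SE 0.23) for SERPINB5, -1.54 (SE 0.35) for SERPINB7 and 1.04 (SE 0.16) for SERPINI1, and none of the 3 genes overlapped between those groups. Against OTX015 alone, the differences were smaller, at -1.03 (SE 0.25), -0.65 (SE 0.37) and 0.59 (SE 0.16). SERPINB7 overlapped between COMBO and OTX015, and its approximate interval, -1.38 to 0.08, included 0. Between libraries of the same number, the COMBO minus OTX015 difference ran from -1.59 to -0.35 for SERPINB5, from -1.22 to -0.33 for SERPINB7 and from 0.31 to 0.72 for SERPINI1. It was on 1 side of 0 at each of the 3 numbers for each gene. The labels do not give this pairing by number. OTX015 and SEL201, given at unlike doses, differed by -0.78 (SE 0.21), -0.89 (SE 0.33) and 0.45 (SE 0.16). The SERPINB7 value was -0.54 without SEL201 3, and the SERPINI1 value was 0.27 without SEL201 2.

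If both agents acted independently on the log2 scale, the COMBO change would equal the sum of the single-agent changes. For SERPINB5 the sum was -4.63 and the COMBO change -3.73, a difference (the interaction) of 0.90 (SE 0.31). For SERPINB7 the sum was -4.98 and the COMBO change -3.59, an interaction of 1.39 (SE 0.48), the 8th highest of all genes. The COMBO difference was smaller in size than the sum for both genes. Both had been chosen for large decreases with SEL201, which enter the sum. That choice favours a higher interaction, so the rank and this shortfall are description only. For SERPINI1 the sum was 1.97 and the COMBO change 1.80, an interaction of -0.17 (SE 0.23) that lay within its SE of 0 (-0.35 without SEL201 2 and 0.00 without SEL201 1). Within library numbers 1, 2 and 3 the interaction was 0.42, 1.39 and 0.96 for SERPINB5, 0.64, 1.82 and 1.70 for SERPINB7, and -0.22, -0.08 and -0.12 for SERPINI1. The low COMBO counts of SERPINB5 bear on its value.

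**Figure D2:**
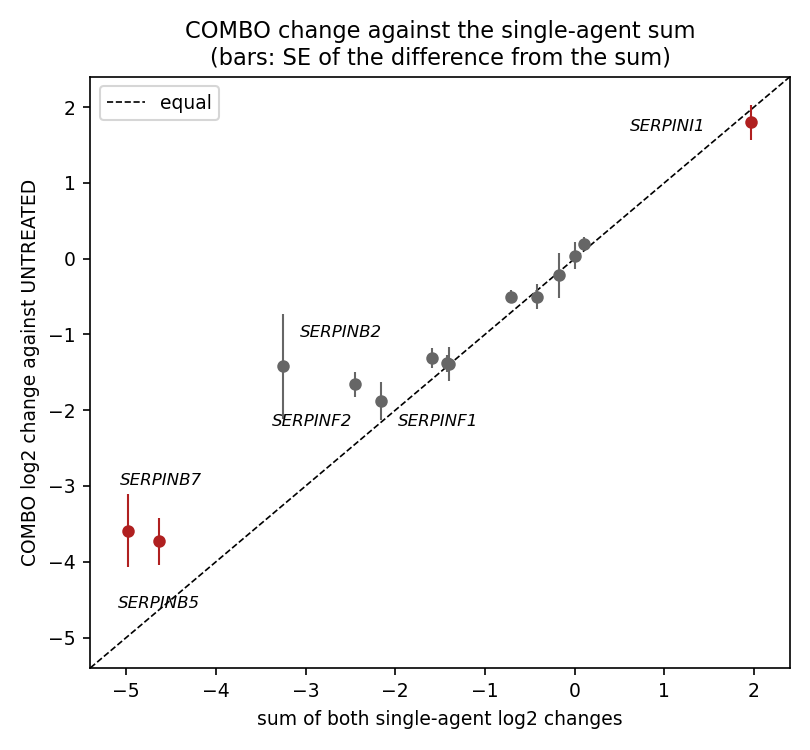
COMBO log2 change against the sum of the SEL201 and OTX015 log2 changes for 14 of the 15 measured serpins, with the 3 described genes in red, bars as the SE of the difference from the sum, and a dashed line where both are equal. SERPINB7 (sum -4.98, COMBO -3.59) and SERPINB5 (-4.63, -3.73) lie above the line and SERPINI1 (1.97, 1.80) lies near it.

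SERPINB5 and SERPINB7 varied together. Over the 12 libraries, which share the 4 groups and their depth, Pearson's r of log2 CPM was 0.97 between them, -0.97 between SERPINB5 and SERPINI1, and -0.89 between SERPINB7 and SERPINI1. These values mostly reflect the differences between groups. After each group's mean was subtracted, r was 0.58 for SERPINB5 with SERPINB7, -0.54 for SERPINB5 with SERPINI1 and 0.18 for SERPINB7 with SERPINI1. For SERPINB7 the library numbered 3 was the highest of each of the 4 groups, though barely with OTX015 (4.68 CPM, against 4.54 CPM in number 1). SERPINB2, an inhibitor of urokinase and a neighbour in the same cluster, also had number 3 highest in each group. Its number 3 values were 84.4 CPM against 55.6 and 44.6 in UNTREATED and 41.8 CPM against 15.5 and 13.1 in COMBO. How many other genes had number 3 highest in every group was not counted. The deviations of SERPINB7 and SERPINB2 had an r of 0.77 over the 12 libraries. The labels do not say what a number marks.

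**Figure D3:**
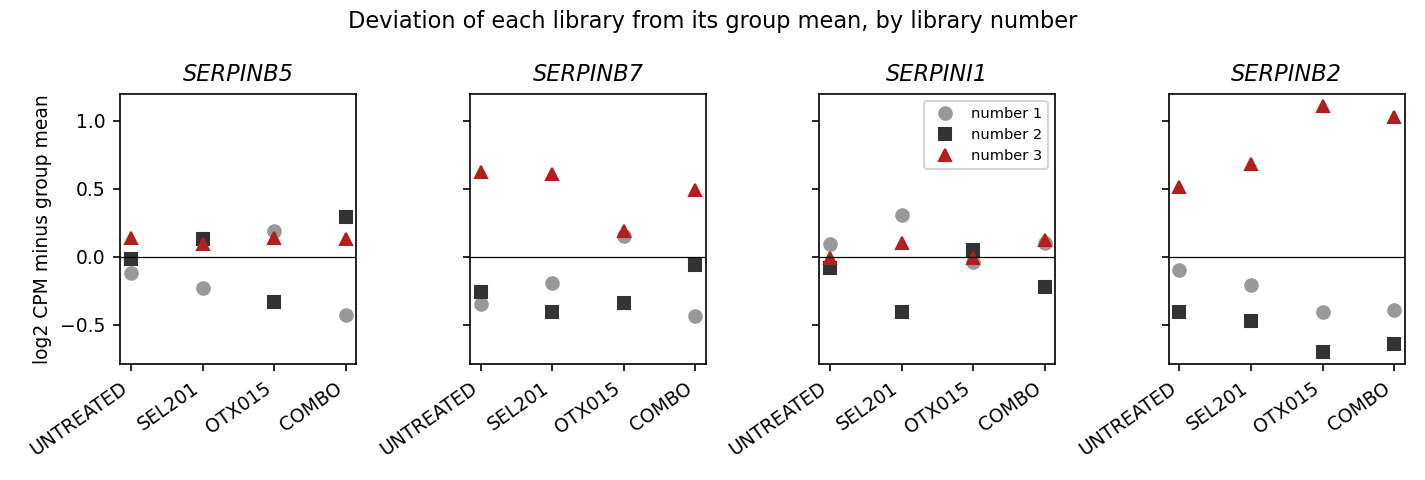
Deviation of log2 CPM from the group mean for SERPINB5, SERPINB7, SERPINI1 and SERPINB2 in each library, by group, with the library number as marker. Number 3 (red triangles) is the highest library of every group for SERPINB7 and SERPINB2, which is not so for SERPINB5 or SERPINI1.

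The genes most like each member were taken as the 6 with the smallest root mean square difference of centred log2 CPM over the 12 libraries. For SERPINB5 they were ALPP (placental alkaline phosphatase, difference 0.255, r = 0.984), ARHGDIB (0.263, r = 0.981), TMEM156, MYO7B (a microvillus myosin), SERPINB7 (0.338) and NLRP3 (an inflammasome sensor). For SERPINB7 they were ALPP (0.255, r = 0.985), NLRP3 (0.257, r = 0.983), TM4SF18, KRT80 (an epithelial keratin), SERPINB5 and ARHGDIB. SERPINB5 and SERPINB7 thus shared ALPP, ARHGDIB and NLRP3 and were on each other's list. ALPP went from 14.3 CPM in UNTREATED to 4.72 with SEL201, 2.44 with OTX015 and 1.43 in COMBO as group means. TMEM156 (14.2 CPM in UNTREATED and 1.14 in COMBO) and MYO7B (13.7 and 0.941 CPM) had similar levels. Like SERPINB5, such genes may be among the measured genes only through UNTREATED, which was not tested. For SERPINI1 the 6 most alike genes were SERTM1 (0.163, r = 0.970), BEND6 (0.169, r = 0.971), PAIP2B (a repressor of translation, 0.169), CHRM3 (a muscarinic receptor), DOPEY2 and TIGD3. SERTM1 went from 13.1 CPM in UNTREATED to 20.3, 29.3 and 43.4 CPM with SEL201, OTX015 and COMBO. The lists depend on the measure. Ranked by Pearson's r instead, 0 of 6 genes remained for SERPINB5, 1 for SERPINB7 and 2 for SERPINI1, and without the number 3 libraries 4 of 6 remained for each.

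The other 12 measured serpins mostly fell. By edgeR's quasi-likelihood test at an adjusted p under 0.05, 7 of 12 fell and 0 rose with SEL201, where 11.1% of all genes fell and 10.1% rose. With OTX015, 8 fell and 1 rose, against 24.7% and 23.3% of all genes. In COMBO, 9 fell and 1 rose, against 29.6% and 28.3%. The median log2 change of the 12 was -0.42, -0.77 and -1.24 in these contrasts, while the median over all genes was 0.00 in each. None fell as far as SERPINB5 or SERPINB7 or reached the increase of SERPINI1 in any of these 3 contrasts. The members had been chosen on measured values, so this comparison follows from the choice and is no result about the family.

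Inhibitors of the plasminogen system were among those that fell. SERPINF2, the main plasmin inhibitor, had 21.6, 23.0 and 22.1 CPM in UNTREATED and 6.68, 6.43 and 8.14 CPM in COMBO. It fell, with log2 changes of -0.87, -1.58 and -1.66 (edgeR adjusted p = 0.00011, 1.2e-07 and 3.3e-08). SERPINB2 fell with OTX015 (-2.05, SE 0.49, edgeR adjusted p = 0.0035) and in COMBO (-1.42, SE 0.48, adjusted p = 0.02), and its value with SEL201 was -1.20 (SE 0.47, adjusted p = 0.091). With the library number as a block, the SEL201 value was -1.24 (edgeR adjusted p = 6.2e-10). The COMBO call was lost without UNTREATED 3 (adjusted p = 0.073), COMBO 1 (adjusted p = 0.087) or COMBO 2 (adjusted p = 0.087). SERPINB2 overlaps SERPINB10 in the annotation, so its counts are uncertain.

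Of the secreted serpins, SERPINF1 (pigment epithelium-derived factor, which restrains angiogenesis) fell with OTX015 (log2 -1.57) and in COMBO (-1.88, edgeR adjusted p = 6.4e-06 and 6.6e-07). SERPIND1, a thrombin inhibitor, fell, with log2 changes of -0.65, -0.94 and -1.31 with SEL201, OTX015 and COMBO (edgeR adjusted p = 0.00025, 2.3e-06 and 5.2e-08). SERPINA1, the main inhibitor of neutrophil elastase in plasma, fell, with log2 changes of -0.39, -1.03 and -1.38 (edgeR adjusted p = 0.0029, 1.9e-07 and 5.6e-09), and SERPINA6, which carries cortisol, fell with OTX015 (log2 -0.94) and in COMBO (-1.39, adjusted p = 0.00019 and 4.4e-06). SERPINA5, the protein C inhibitor, fell in COMBO (-0.50, SE 0.12, edgeR adjusted p = 0.0023) and had -0.21 with either agent, past the threshold only with the block (adjusted p = 0.0032 with SEL201 and 0.0014 with OTX015) or, with OTX015, without OTX015 1 (adjusted p = 0.04). SERPINA3, which inhibits chymotrypsin-like proteases, and SERPINE3 passed the threshold in no contrast.

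Of the other clade B genes besides SERPINB2, 1 fell and 1 rose. SERPINB8 fell with OTX015 and in COMBO (log2 -0.50 in both, edgeR adjusted p = 1.9e-05 and 1e-05). SERPINB1 was the 1 serpin of the 12 that rose, by 0.23 (SE 0.07) with OTX015 and 0.20 (SE 0.07) in COMBO (edgeR adjusted p = 0.0086 and 0.018). Its COMBO call was lost without UNTREATED 1, UNTREATED 3 or COMBO 1 (adjusted p = 0.057, 0.068 and 0.1), and with the block it fell with SEL201 (-0.13, adjusted p = 0.01).

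Several of the SEL201 calls were near the threshold. SERPINA6 had -0.46 (edgeR adjusted p = 0.043), and 9 of the 12 leave-one-out fits lost the call, with adjusted p from 0.05 to 0.17. SERPINB8 had -0.21 (adjusted p = 0.026) and lost it without UNTREATED 3 (adjusted p = 0.11), SEL201 1 (adjusted p = 0.065) or SEL201 2 (adjusted p = 0.11). SERPINF1 had -0.59 (adjusted p = 0.024) and lost it without UNTREATED 1 (adjusted p = 0.086), UNTREATED 2 (adjusted p = 0.11), SEL201 1 (adjusted p = 0.054) or SEL201 3 (adjusted p = 0.089).

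**Figure D4:**
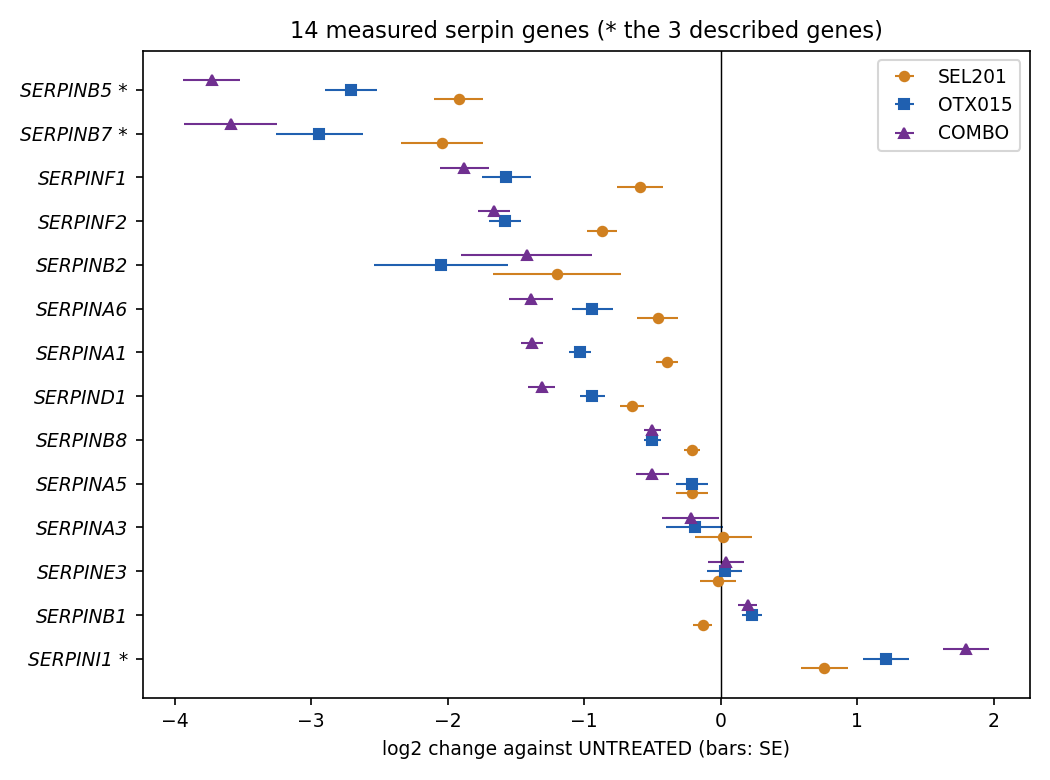
Log2 change against UNTREATED with SEL201, OTX015 and COMBO for 14 of the 15 measured serpin genes, ordered by the COMBO change, with bars as SE. SERPINB5 (-3.73 in COMBO) and SERPINB7 (-3.59) are at the low end and SERPINI1 (1.80) at the high end, and the other 11 drawn run from -1.88 (SERPINF1) to 0.20 (SERPINB1) in COMBO. SERPINB5, SERPINB7 and SERPINI1 were chosen on measured values.

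Between the treated groups, 7 of the 12 other serpins were lower and 1, SERPINB1, was higher in COMBO than with SEL201 alone (all genes: 21.2% and 18.8%). Against OTX015 alone, 3 were lower and 0 higher (4.01% and 2.9%). Among these were SERPINA1 (-0.35, edgeR adjusted p = 0.02) and SERPIND1 (-0.37, adjusted p = 0.036). With the block 5 were lower and 1, SERPINB2, was higher (0.65, adjusted p = 0.00053). The calls of SERPINA1 and SERPIND1 were both lost without OTX015 1 (adjusted p = 0.065 and 0.11), OTX015 3 (adjusted p = 0.055 and 0.12) or COMBO 1 (adjusted p = 0.086 and 0.062). That of SERPIND1 was also lost without SEL201 1 (adjusted p = 0.051), COMBO 2 (adjusted p = 0.13) or COMBO 3 (adjusted p = 0.062). For OTX015 against SEL201, 6 were lower and 1 higher (13.1% and 10.4%), and with the block SERPINB2 was also lower (-0.94, adjusted p = 1.1e-06).

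The interaction passed the edgeR threshold in 0 of the 12 other serpins, where 0.21% of all genes were higher and 0.0699% lower, and 3 of the 12 had an unadjusted p under 0.05. DESeq2 called 1 and the block 3. SERPINF2 had an interaction of 0.79 (SE 0.16, edgeR adjusted p = 0.064), with adjusted p = 0.0061 by DESeq2 and 0.0042 with the block. SERPINB2 had 1.83 (SE 0.69, adjusted p = 0.38), which was 1.89 with the block (adjusted p = 1e-08) and 2.04 without the number 3 libraries (adjusted p = 0.00076). SERPINB8 had 0.21 (adjusted p = 0.47), which was 0.22 with the block (adjusted p = 0.0067). For SERPINB2, as for SERPINB5 and SERPINB7, the COMBO change (-1.42) was smaller than the sum of the single-agent changes (-3.25).

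Changes among the measured genes nearest to SERPINB5 and SERPINB7 on chromosome 18 were mixed. Taking 5 on each side of each gene, without the members themselves, 9 neighbours of each were tested, and 2 rose and 2 fell with SEL201 (all genes: 10.1% and 11.1%), and 2 rose and 5 fell both with OTX015 (23.3% and 24.7%) and in COMBO (28.3% and 29.6%). With the block, 4 fell with SEL201, and CDH7 also rose in each of the 3 contrasts against UNTREATED. On 1 side, BCL2, which restrains apoptosis, had -0.13 with SEL201 (edgeR adjusted p = 0.22) and fell with OTX015 (log2 -0.24) and in COMBO (-0.37, adjusted p = 0.0092 and 0.00032), while PHLPP1 (0.01 in COMBO, adjusted p = 0.86) passed the threshold in none of the 3 contrasts against UNTREATED, although with the block it fell with SEL201 (-0.12, adjusted p = 0.036). On the other side stood SERPINB2 and SERPINB8, and then CDH7 (0.85 in COMBO, adjusted p = 0.12, and with the block adjusted p = 0.0087 with SEL201, 9.6e-08 with OTX015 and 1.3e-07 in COMBO) and CDH19. CDH19, a cadherin of the Schwann cell and melanocyte lineage, fell, with log2 changes of -1.05, -2.20 and -2.47 (edgeR adjusted p = 0.00018, 7e-08 and 1e-08). TNFRSF11A fell with OTX015 (log2 -0.60) and in COMBO (-0.71, adjusted p = 4.2e-05 and 4.8e-06). ZCCHC2, KIAA1468 and DSEL rose in COMBO by 0.48, 0.34 and 0.72 (adjusted p = 2.1e-06, 2.2e-06 and 2.1e-06). The order is that of RefSeq without a limit of distance, and genes between these that are not in the table were not analysed here.

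**Figure D5:**
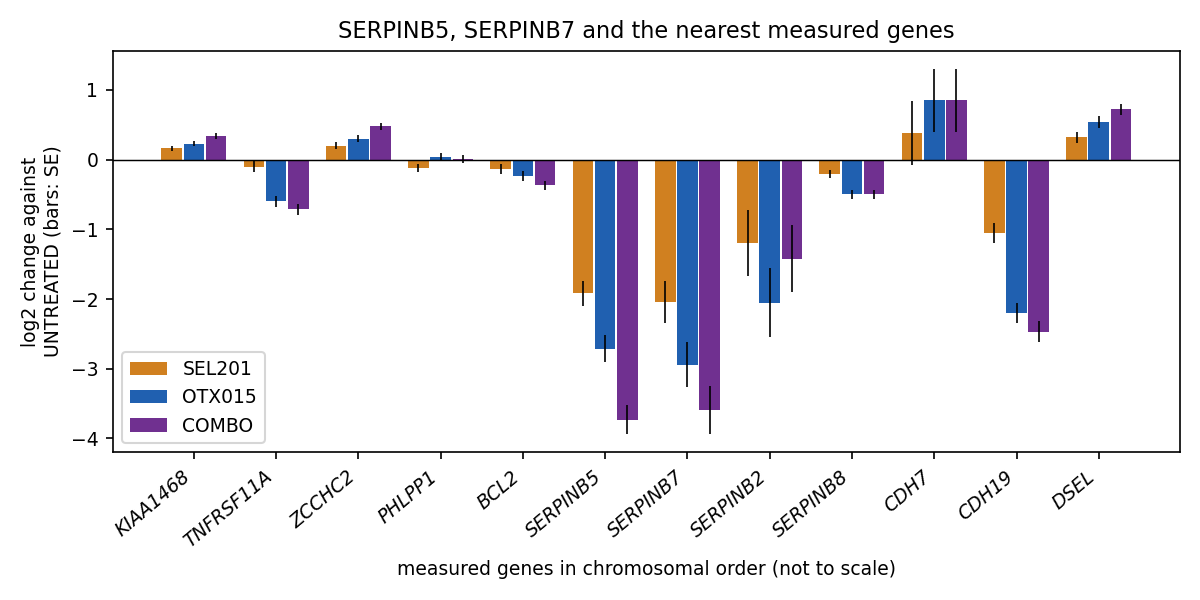
Log2 change against UNTREATED (bars, with SE) for SERPINB5, SERPINB7 and the measured genes nearest to them, in chromosomal order and not to scale. SERPINB5 and SERPINB7, chosen for large decreases, have the lowest values of the 12 genes in each contrast. CDH19 reaches -2.47 in COMBO, and PHLPP1, between BCL2 and ZCCHC2, is near 0 (0.01 in COMBO).

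Around SERPINI1 on chromosome 3, 10 measured neighbours were tested, the nearest 5 on each side without a limit of distance. Genes between them that were not measured were not analysed here. With SEL201, 1 rose and 3 fell (5 fell with the block or by DESeq2), and 1 rose and 4 fell both with OTX015 and in COMBO. With the block, 2 rose in COMBO and IFT80 also fell there (-0.13, edgeR adjusted p = 0.037). The shares of all genes were as given for the chromosome 18 neighbours. The 1 that rose without the block was PPM1L, a protein phosphatase, by 0.38, 0.78 and 1.05 (edgeR adjusted p = 0.0016, 7.9e-07 and 2e-08). The nearest measured genes did not go the way of SERPINI1. BCHE, butyrylcholinesterase, fell with OTX015 (log2 -0.62) and in COMBO (-0.47, adjusted p = 0.001 and 0.0047), and MECOM, a transcription factor gene, fell, with log2 changes of -0.28, -0.47 and -0.68 (edgeR adjusted p = 0.006, 3.3e-05 and 5.4e-07). ACTRT3 fell, with log2 changes of -0.57, -0.70 and -0.74 (adjusted p = 0.0015, 8.8e-05 and 3.2e-05).

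SERPINB5 and SERPINB7 are transcripts of keratinocytes and other epithelia, and 25 of 53 listed keratinocyte and epithelial genes were measured besides them. With SEL201, 16 of the 25 fell and 1 rose (3 rose with the block). With OTX015 and in COMBO, 19 fell and 2 rose. Of all genes, 11.1% fell and 10.1% rose with SEL201, 24.7% and 23.3% with OTX015, and 29.6% and 28.3% in COMBO. Their median log2 change was -0.63, -0.92 and -1.18 in these contrasts, against 0.00 over all genes. S100A2, a calcium-binding protein of basal keratinocytes, fell from 742 ± 88.5 CPM to 124 ± 13.0 CPM in COMBO (log2 -2.58, edgeR adjusted p = 1.2e-09). The basal keratin KRT14 fell from 166 ± 10.7 to 38.8 ± 3.02 CPM (-2.10, adjusted p = 2.3e-10), the laminin subunit LAMB3 from 439 ± 48.1 to 133 ± 9.06 CPM (-1.72, adjusted p = 6e-10) and the tight junction claudin CLDN4 from 293 ± 15.4 to 99.4 ± 9.07 CPM (-1.56, adjusted p = 1.4e-10). All 4 also fell with each single agent. For the interaction, 2 of the 25 were above the threshold and 0 below it (all genes: 0.21% and 0.0699%), with a median of 0.43 against -0.01 over all genes. The count above it was 7 by DESeq2, 12 with the block, 7 without the number 3 libraries and 1 without UNTREATED 2.

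SERPINI1 was set beside a list of neuronal secretory and axonal genes, of which 17 of 34 were measured. With SEL201 5 rose and 1 fell (9 and 3 with the block), with OTX015 9 rose and 3 fell, and in COMBO 11 rose and 3 fell (5 fell with the block). The shares of all genes that rose and fell were 10.1% and 11.1%, 23.3% and 24.7%, and 28.3% and 29.6%. The median log2 changes were 0.20, 0.25 and 0.47. The neuronal tubulin TUBB3 rose by 0.58, 0.95 and 1.37 (edgeR adjusted p = 1.6e-05, 2.9e-08 and 2.8e-10), and the synaptic adhesion gene NLGN1 rose by 0.94 in COMBO (adjusted p = 1.5e-07). SCG5, a secretory chaperone, went the other way and fell, with log2 changes of -1.62, -2.47 and -3.19 (edgeR adjusted p = 1.8e-05, 9.5e-08 and 5.2e-09).

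The proteases on which serpins of these kinds act were measured in part. PLAT, the tissue plasminogen activator that SERPINI1 inhibits, and PLAU and PLAUR were not analysed here. Of 59 listed plasminogen system and trypsin-like protease genes 15 were measured, of which 1 rose and 4 fell with SEL201 (2 rose with the block), 3 rose and 6 fell with OTX015, and 3 rose and 7 fell in COMBO. Of all genes, 10.1% rose and 11.1% fell with SEL201, 23.3% and 24.7% with OTX015, and 28.3% and 29.6% in COMBO. Their median log2 changes were -0.07, -0.13 and -0.22. PRSS12 (neurotrypsin, a neuronal protease) fell from 186 ± 6.73 CPM to 90.5 ± 4.20 CPM in COMBO (log2 -1.04, edgeR adjusted p = 5.1e-09), and TMPRSS5 fell by 1.18 (adjusted p = 5.8e-09). HTRA1, a secreted protease, rose by 0.88, 1.45 and 1.86 (edgeR adjusted p = 0.0014, 5.3e-06 and 2.6e-07), whereas its relative HTRA3 fell by 0.85 in COMBO (adjusted p = 8.1e-07). Of 11 listed reported partners and regulators of maspin, only COL1A1, a fibrillar collagen gene, was measured, and it fell, with log2 changes of -0.73, -0.75 and -0.76 (edgeR adjusted p = 0.01, 0.0036 and 0.0025). Its SEL201 call was lost without SEL201 1 (adjusted p = 0.055).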

How the data were processed

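The authors deposited a table of raw counts, with genes in rows and the 12 libraries in columns. Per the submitters' processing notes, the build was hg19 and the tools were STAR 2.5.4b, featureCounts, SAMtools 1.9, Trimmomatic, FastQC and DESeq2, without stated roles. Per the labels' protocols, libraries were stranded poly(A) and paired-end. For the gene annotation, strand setting and gene filter, the entry is: not given in the sources used here. Symbols were used as deposited: 8499 matched GENCODE release 29 (exon lengths) and 7868 were placed by RefSeq (gene order).

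Counts were analysed with edgeR 4.0.16 in R 4.3.3 (TMM, filterByExpr, glmQLFit and glmQLFTest, group means over all 12 libraries) and adjusted by Benjamini-Hochberg over 8579 genes at 0.05. Each SE was obtained as the log2 change over the root of its F statistic. CPM uses TMM-scaled totals of these genes. The alternative fits used DESeq2 1.42.0, RLE scaling, no filter, at least 10 CPM in 3 libraries (7638 genes), a replicate block, only the compared groups, leaving out the number 3 libraries and leaving out each library. The steps were tested on simulated counts.

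Same-numbered libraries deviated from their group means together (r across genes of 0.263 to 0.574 in 18 pairs, against -0.462 to 0.194 in 36 others). The pairing comes from the data, not the labels, and blocked values are given for the results named where they change a call. The biological coefficient of variation was 7.92% without the block and 4.35% with it. No pair of libraries within a group looked like 1 library (chi-square per degree of freedom of 6.34 or more). The 3 genes and all lists were chosen with earlier results of these data known. Named genes were the measured serpins, the 6 genes most like each member, up to 4 genes per list with the lowest COMBO p, and the nearest or called neighbours. Genes counted in these lists but not named are not reported here by name.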

Additional observations from a re-analysis of the deposited data

How the results depend on the processing

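The log2 changes of SERPINB5, SERPINB7 and SERPINI1 moved by less than the spread between replicates in 396 of 396 alternative values. These are 1 value per gene, contrast and setting, with 19 settings (18 for the interaction), and they are not independent. For settings that leave out libraries this was largely fixed in advance. Leaving out 1 of 3 libraries shifts the mean of its group by less than that spread. COMBO against UNTREATED ranged from -3.93 to -3.50, from -3.84 to -3.21 and from 1.73 to 1.90. Of 1577 alternative values for the other 12 serpins, 1494 kept their direction and side of the threshold, 28 gained a call and 55 lost one. With the replicate block, the other serpins higher in COMBO than with OTX015 numbered 1, those lower 5, and those with a higher interaction 3. Without the number 3 libraries, 1 was higher in COMBO than with OTX015 and 1 had a higher interaction, and DESeq2 gave 1 for the latter. With only the compared groups fitted, 1 was lower in COMBO than with OTX015. Leaving out 1 library, the count lower with SEL201 ranged from 4 to 8 (lowest without SEL201 1), the count higher in COMBO from 0 to 1 (0 without UNTREATED 1, UNTREATED 3 or COMBO 1), and the count lower in COMBO than with OTX015 from 1 to 3 (1 without OTX015 1, OTX015 3 or COMBO 1). The block moved no other count of serpin calls by over 1.5 times. Counts of 18 to 29 limit the precision of SERPINB5 in COMBO.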

Other observations

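Cysteine cathepsins and cystatins, a protease and inhibitor system beside the serine proteases, were measured for 7 of 20 listed genes. With SEL201 1 rose and 0 fell (2 fell with the replicate block), and with OTX015 1 rose and 4 fell. In COMBO 1 rose and 5 fell, with a median log2 change of -0.51. Of all genes, 10.1% rose and 11.1% fell with SEL201, 23.3% and 24.7% with OTX015, and 28.3% and 29.6% in COMBO. CTSS, a lysosomal protease of antigen processing, fell from 418 ± 68.7 CPM in UNTREATED to 122 ± 12.7 CPM in COMBO (log2 -1.78, edgeR adjusted p = 3.7e-08). CTSH (-0.56, adjusted p = 2.7e-05) and CTSW (-1.06, adjusted p = 0.001) also fell in COMBO, while CTSV, a close relative of cathepsin L, rose (0.74, adjusted p = 1.7e-05).

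Of 14 listed melanocyte and melanoma genes 8 were measured, of which 2 rose and 3 fell in COMBO, where 28.3% and 29.6% of all genes did, so these counts are near the background. GPNMB, a melanosomal glycoprotein, fell from 443 ± 26.9 to 213 ± 16.9 CPM (edgeR adjusted p = 1.3e-08), and S100B, a calcium-binding marker of the lineage, rose from 54.1 ± 6.86 to 103 ± 11.8 CPM (adjusted p = 3.4e-06). MLANA rose by 0.64 in COMBO (edgeR adjusted p = 0.0069, and 0.055 without the number 3 libraries). The receptor NGFR fell by 0.73 in COMBO (adjusted p = 0.014), and the call was lost without UNTREATED 3 (adjusted p = 0.082) or COMBO 1 (adjusted p = 0.059).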
